A study of Mus musculus with 7 samples.

Results

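Sphingosine 1-phosphate (S1P) is a signaling lipid that is made from sphingosine inside cells and read by G protein-coupled receptors on their surface. The 10 genes described here encode its 5 receptors (S1pr1 to S1pr5), the 2 sphingosine kinases that make it (Sphk1 and Sphk2), the lyase and the phosphatase that remove it (Sgpl1 and Sgpp1) and an exporter that carries it out of cells (Spns2). They were selected on the difference of S1pr4 between ROCK1/2-inhibitor and vehicle, which is large on these arrays, and the other 9 genes were taken with it as its family and pathway. All 10 were measured, each by 1 transcript cluster, the group of probes that reports a gene on the array, among 19494 genes with a symbol. The values of S1pr4 are therefore given as a description, without a test.

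S1P is kept high in blood and lymph and low inside tissues, and leukocytes that carry S1P receptors follow this difference out of lymphoid organs. S1pr1 guides the exit of lymphocytes and is also found on endothelium, S1pr5 is known from NK cells and patrolling monocytes, and S1pr4 is largely limited to cells of the hematopoietic system. Several of these receptors couple to Gi proteins, and S1pr2 is the member best known for coupling to G12/13 proteins and through them to RhoA, the GTPase that activates the ROCK kinases.

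The arrays were made from CD11b+ CD45+ spleen cells of 4 mice that received the ROCK1/2-inhibitor Y-27632 (R1 to R4) and 3 mice that received vehicle (V2 to V4), with 1 array per mouse. All mice were wild type BALB/cAnN recipients, irradiated with 2 doses of 5 Gy and given 5000000 bone marrow cells and 300000 T cells of C57BL6/N donors, so both groups carried an allogeneic transplant and the vehicle mice are not healthy controls. The inhibitor was injected intraperitoneally at 8 mg/kg in a volume of 100 µl for 10 days from day 4, vehicle mice received PBS in its place, and the study's methods place the sort on day 14 and the age of its mice between 6 and 14 weeks. The gate holds neutrophils, monocytes and macrophages and is not described as separating donor from recipient cells. In such a mixed population, fewer cells of one type and less RNA per cell cannot be told apart.

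Itgam, which encodes CD11b, had log2 intensities of 8.56 to 9.15 in inhibitor mice and 9.08 to 9.66 in vehicle mice, and Ptprc, which encodes CD45, 9.18 to 9.63 in inhibitor mice and 8.56 to 9.96 in vehicle mice. One field of the sample labels names CXCL12-rich reticular cells instead. The 7 markers of such stromal cells averaged 2.06 to 2.16 in inhibitor mice and 2.01 to 2.04 in vehicle mice, under the median of the array (2.14 to 2.19) in every mouse but R3. Pairs of arrays correlated at 0.953 to 0.972 within groups and at 0.924 to 0.970 between them. The adjusted threshold of 0.05 in limma was met by 494 of the 22139 transcript clusters (2.23%), with 234 higher (1.06%) and 260 lower (1.17%) in inhibitor mice.

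The bases before the annotated start of S1pr4 are shown beside those of S1pr2 because they show how these receptor genes differ in sequence. Both stretches hold 250 bases in the direction of the gene, from RefSeq on GRCm38.p6, with each CpG (the letters CG, which read the same on both strands) in capitals.
S1pr4, chr10:81500138-81500387, minus strand: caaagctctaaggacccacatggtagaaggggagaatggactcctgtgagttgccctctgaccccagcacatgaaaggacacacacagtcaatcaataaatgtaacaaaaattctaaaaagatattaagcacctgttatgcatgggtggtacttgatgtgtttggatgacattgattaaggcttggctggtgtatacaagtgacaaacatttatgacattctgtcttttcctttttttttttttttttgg
S1pr2, chr9:20976794-20977043, minus strand: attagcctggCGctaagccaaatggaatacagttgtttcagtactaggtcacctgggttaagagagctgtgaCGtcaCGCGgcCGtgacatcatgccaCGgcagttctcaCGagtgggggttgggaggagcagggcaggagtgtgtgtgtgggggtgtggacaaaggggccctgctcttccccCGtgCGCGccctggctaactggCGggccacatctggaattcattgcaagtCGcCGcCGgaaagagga
The S1pr4 stretch holds 0 CpG and 38.8% G and C, and the S1pr2 stretch 14 CpG and 59.2%. At least 1 CpG is present in 92.1% of the 32851 stretches of this length in the table, whose median is 6. Of the 10 genes, 9 have a stretch in the table, in 14 stretches in all, and outside S1pr4 these hold 2 (Spns2) to 31 (Sgpl1) CpG. This is a description of these letters and says nothing of which factors act there.

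S1pr4 had a lower level in each inhibitor mouse than in any vehicle mouse. Its log2 intensity was 5.27 in R1, 3.86 in R2, 3.67 in R3 and 2.96 in R4, against 6.92 in V2, 6.87 in V3 and 6.09 in V4. The groups did not overlap: the highest inhibitor mouse, R1, lay 0.82 below the lowest vehicle mouse, V4. Of all transcript clusters, 7.03% were lower with the inhibitor without overlap. Inhibitor mice averaged 3.94 ± 0.97 (SD, n = 4) and vehicle mice 6.63 ± 0.47 (SD, n = 3), a log2 difference of −2.69 (standard error 0.47) or a 6.46-fold lower intensity. The inhibitor mice themselves spanned 2.31 log2 units and the vehicle mice 0.83. R1 lay 1.78 above the mean of the other inhibitor mice, and the difference was −3.13 without R1 and −2.37 without R4, the widest values when 1 mouse was left out.

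The remaining 4 receptor genes did not pass the test. S1pr2 had log2 intensities of 2.51 in R1, 2.77 in R2, 2.73 in R3 and 2.27 in R4, against 2.78 in V2, 3.14 in V3 and 3.52 in V4. Every inhibitor mouse was below every vehicle mouse, but R2 and V2 were only 0.0145 apart. The log2 difference was −0.58 (95% interval −1.05 to −0.11, adjusted p = 0.213 from limma). The intervals here are those of single genes and are not corrected for the number of genes.
S1pr1, S1pr3 and S1pr5 had overlapping groups and small differences. S1pr1 ranged between 1.79 and 2.46 in inhibitor mice and between 1.64 and 1.96 in vehicle mice, with R4 highest, and its log2 difference was 0.18 (95% interval −0.26 to 0.62, adjusted p = 0.762 from limma). S1pr3 ranged between 1.58 and 1.97 in inhibitor mice and between 1.57 and 1.75 in vehicle mice (log2 difference 0.11, 95% interval −0.24 to 0.45, adjusted p = 0.833 from limma). S1pr5 ranged between 1.90 and 2.12 in inhibitor mice and between 1.72 and 1.94 in vehicle mice (log2 difference 0.18, 95% interval −0.14 to 0.50, adjusted p = 0.653 from limma). Apart from S1pr1 in R4, these 3 genes lay under the median of every array, where the files do not tell a low level from background.

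**Figure D1:**
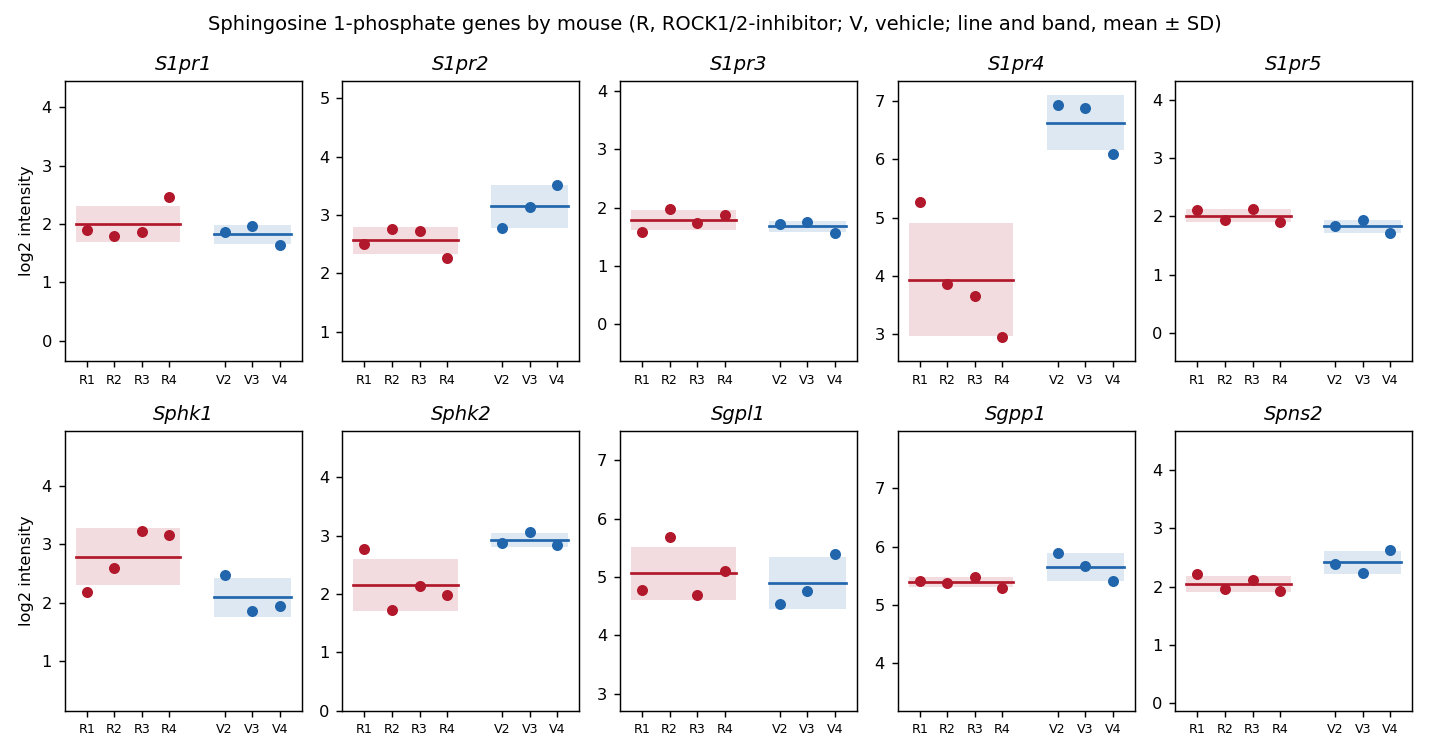
Log2 intensity of each of the 10 genes (y axis) in the 4 inhibitor mice (red, R1 to R4) and the 3 vehicle mice (blue, V2 to V4), with the group mean as a line and the SD as a band; every panel spans the same number of log2 units. S1pr4 lies between 2.96 and 5.27 in inhibitor mice and between 6.09 and 6.92 in vehicle mice, while the groups of most other genes touch or overlap.

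The kinases that make S1P had differences of opposite sign, and neither passed the test with all mice. Sphk1, an inducible cytosolic kinase, had log2 intensities of 2.19 in R1, 2.59 in R2, 3.24 in R3 and 3.15 in R4, against 2.47 in V2, 1.86 in V3 and 1.94 in V4. R2, R3 and R4 lay above all vehicle mice and R1 lay below V2. The log2 difference of Sphk1 was 0.70 (95% interval 0.08 to 1.32, adjusted p = 0.261 from limma).
Sphk2, a kinase found also in the nucleus and mitochondria, had log2 intensities of 2.77 in R1, 1.73 in R2, 2.14 in R3 and 1.98 in R4, against 2.87 in V2, 3.07 in V3 and 2.84 in V4. The groups did not overlap, with R1 0.065 below V4 and the other inhibitor mice further down. Its log2 difference was −0.77 (95% interval −1.30 to −0.24, adjusted p = 0.138 from limma), and −0.97 without R1 (adjusted p = 0.0193 from limma), the only setting that left out a mouse in which Sphk2 passed. R1 lay above the mean of the other inhibitor mice by 0.82 for Sphk2, and for Sphk1 R1 minus that mean was −0.81.

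The enzymes that remove S1P were the members with a bright signal on every array and showed no difference past the threshold. Sgpl1, the lyase that breaks S1P down for good, ranged between 4.69 and 5.68 in inhibitor mice and between 4.53 and 5.40 in vehicle mice. Its log2 difference was 0.16 (95% interval −0.47 to 0.80, adjusted p = 0.867 from limma), and it turned to −0.043 without R2 and also below 0 without V2. Sgpp1, the phosphatase that returns S1P to sphingosine, had the narrowest spread among inhibitor mice, 5.29 to 5.49, against 5.41 to 5.89 in vehicle mice (log2 difference −0.27, 95% interval −0.62 to 0.09, adjusted p = 0.504 from limma). Spns2, the exporter, was 2.21 in R1, 1.96 in R2, 2.12 in R3 and 1.92 in R4, against 2.39 in V2, 2.24 in V3 and 2.63 in V4. Its groups were separated by 0.030, between R1 and V3, and the log2 difference was −0.37 (95% interval −0.72 to −0.01, adjusted p = 0.306 from limma).

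Beside S1pr4, 0 of the other 9 genes passed in limma, with adjusted p between 0.138 and 0.867. At an unadjusted p under 0.05 there were 4 (Sphk2, S1pr2, Sphk1 and Spns2), against 15.3% of all transcript clusters. The count of 0 became 1 (Sphk2) without R1 and was 0 without any other mouse. Of these 9 genes, 3 had groups that did not overlap and were lower with the inhibitor (S1pr2, Sphk2 and Spns2), where 7.03% of all transcript clusters did, and 0 were higher without overlap, where 6.22% did. The median log2 difference was 0.11 over the 9 genes and 0.0049 over all transcript clusters. On every array, 7 of the 10 lay under the upper quartile of its transcript clusters (3.35 to 3.68), Sgpl1 and Sgpp1 lay above it, and S1pr4 lay above it in R1, R2, R3 and all vehicle mice but not in R4.

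**Figure D2:**
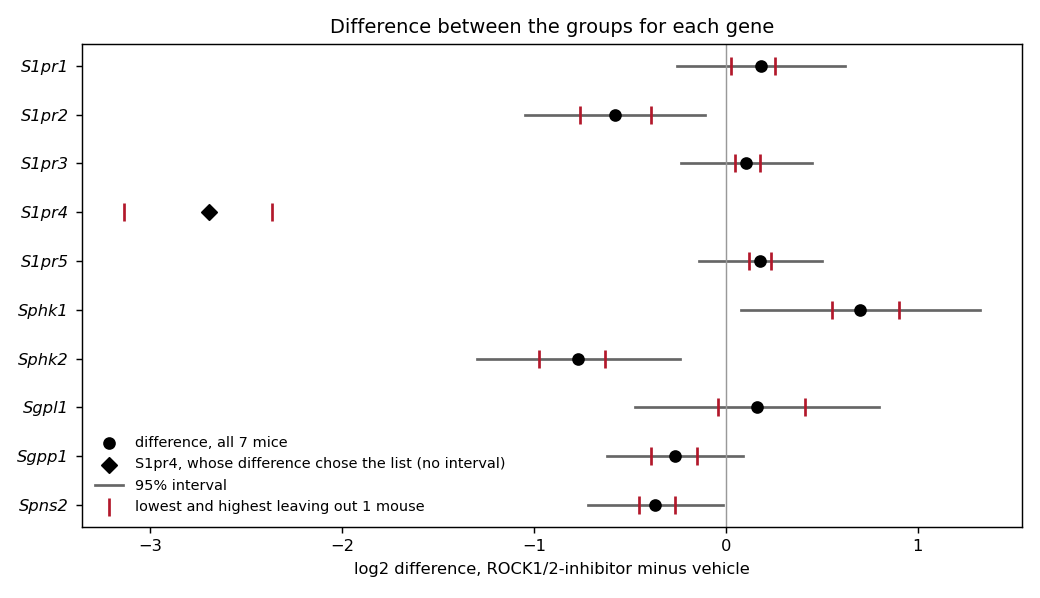
Log2 difference, inhibitor minus vehicle (x axis), of the 10 genes (y axis), with the 95% interval of the single gene in grey and the lowest and highest difference when 1 mouse was left out in red. S1pr4 (diamond), whose difference chose the list, has no interval and stands at −2.69, and the other genes lie between −0.77 (Sphk2) and 0.70 (Sphk1).

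To see what surrounds these genes, 4 further lists were followed, written from general knowledge with earlier results of these arrays known. In them 3 of 96 measured genes rose and 4 fell, or 7.29%, against 2.23% of all transcript clusters. The latter share depends on dim rows: without the dimmest 25% of rows, 726 transcript clusters were called rather than 494. All calls in these lists were lost when R2, R3, R4, V2 or V3 was left out. None of 9 other genes that handle S1P passed in limma in either direction (median log2 difference −0.22). An unadjusted p under 0.05 in limma was met by 15.3% of all transcript clusters and by 2 of these 9 genes. Among them, Aldh3a2, which oxidizes the aldehyde left by the lyase, had a log2 difference of −1.19 (adjusted p = 0.148 from limma), Cib1, which carries Sphk1 to membranes, of −0.78 (adjusted p = 0.127) and the blood cell exporter Mfsd2b of −0.36 (adjusted p = 0.361). Without R1, Cib1 passed (adjusted p = 0.0466 from limma).

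Of 24 measured genes that couple S1P receptors to the cell or control them, 3 fell, where 1.17% of all transcript clusters did. None rose and 21 did not pass (median log2 difference −0.21). Of the 24, 6 were lower and 5 higher at an unadjusted p under 0.05 in limma. In either direction, 15.3% of all transcript clusters had such a p. Grk6, a kinase that phosphorylates activated G protein-coupled receptors, had log2 intensities of 5.69 in R1, 4.69 in R2, 5.37 in R3 and 4.84 in R4, against 6.56 in V2, 6.78 in V3 and 6.42 in V4. It fell by 1.44 on the log2 scale (standard error 0.25, adjusted p = 0.0279 from limma).
Arhgef1, an exchange factor that links G12/13 proteins to RhoA, was 5.18 in R1, 5.36 in R2, 5.70 in R3 and 4.97 in R4, against 7.26 in V2, 6.59 in V3 and 6.15 in V4. It fell by 1.36 (standard error 0.27, adjusted p = 0.0412 from limma). Rac2, a GTPase of blood cells that drives actin assembly and the oxidase of phagocytes, was 8.47 in R1, 8.51 in R2, 8.03 in R3 and 7.63 in R4, against 9.31 in V2, 9.18 in V3 and 9.48 in V4, and fell by 1.17 (standard error 0.23, adjusted p = 0.0390 from limma). In all 3 genes each inhibitor mouse lay below each vehicle mouse, as in 7.03% of all transcript clusters. The calls rest on these same values, so this is no further support.
Next by p in this list were 3 genes with higher means that did not pass. Rgs1 and Rgs2, which shorten G protein signals, had log2 differences of 1.86 (adjusted p = 0.0513 from limma) and 0.66 (adjusted p = 0.0672). Rgs1 was 5.24 in R1 and 4.98 in R3 but 3.63 in R2 and 3.62 in R4, against 2.28 to 2.74 in vehicle mice. Rock1, a target of the inhibitor itself, was 8.01 to 9.25 in inhibitor mice and 6.82 to 7.84 in vehicle mice, a log2 difference of 1.43 (adjusted p = 0.0640 from limma). With a trended and robust variance model Rgs1 (adjusted p = 0.0121 from limma) and Rock1 (adjusted p = 0.0181) passed, while Rgs2 did not (adjusted p = 0.19).

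In the metabolism of ceramide and other sphingolipids, the source of sphingosine, 1 of 47 measured genes rose and 1 fell (median log2 difference −0.12). Over all transcript clusters 1.06% rose and 1.17% fell. At an unadjusted p under 0.05 in limma 4 of the 47 were higher and 7 lower. Such a p was found in 15.3% of all transcript clusters, both directions counted. Asah1, the lysosomal ceramidase that frees sphingosine from ceramide, was 7.64 in R1, 7.50 in R2, 7.52 in R3 and 8.14 in R4, against 6.67 in V2, 6.77 in V3 and 6.93 in V4. All inhibitor mice were above all vehicle mice, as in 6.22% of all transcript clusters. The log2 difference was 0.91 (standard error 0.19, adjusted p = 0.0454 from limma). This call was lost with a trended and robust variance model (adjusted p = 0.0679), repeated quantile normalization (adjusted p = 0.0807) and cyclic loess (adjusted p = 0.0658).
B4galnt1, which builds the gangliosides GM2 and GD2, was 4.03 in R1, 2.34 in R2, 3.35 in R3 and 2.08 in R4, against 4.97 in V2, 4.92 in V3 and 5.17 in V4. It fell by 2.07 (standard error 0.42, adjusted p = 0.0421 from limma). Not past the threshold, Acer3, a ceramidase of the endoplasmic reticulum and Golgi, had a log2 difference of 1.30 (adjusted p = 0.0519 from limma), the glucosylceramide synthase gene Ugcg of 0.77 (adjusted p = 0.0790) and Smpd1, the acid sphingomyelinase gene, of −0.80 (adjusted p = 0.0817). Acer3 passed with a trended and robust variance model (adjusted p = 0.0393 from limma), repeated quantile normalization (adjusted p = 0.0292) and cyclic loess (adjusted p = 0.0285).

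Among 16 measured receptors for other lysolipids and their relatives, 2 rose, where 1.06% of all transcript clusters did. None fell and 14 did not pass (median log2 difference 0.10). Of the 16, 4 were higher and 0 lower at an unadjusted p under 0.05 in limma. That p was reached by 15.3% of all transcript clusters in either direction. Lpar6, a receptor for lysophosphatidic acid, was 6.22 in R1, 5.63 in R2, 6.10 in R3 and 5.41 in R4, against 4.59 in V2, 4.33 in V3 and 4.40 in V4, and rose by 1.40 (standard error 0.22, adjusted p = 0.0212 from limma). Gpr65, a receptor that senses protons, was 7.34 in R1, 7.92 in R2, 7.70 in R3 and 7.95 in R4, against 5.08 in V2, 5.85 in V3 and 6.64 in V4, and rose by 1.87 (standard error 0.33, adjusted p = 0.0284 from limma). The groups did not overlap in either gene, where 6.22% of all transcript clusters were higher without overlap. Lpar2, another lysophosphatidic acid receptor, had a log2 difference of −0.56 (adjusted p = 0.363 from limma), Gpr34 of 0.90 (adjusted p = 0.182) and the oxysterol receptor gene Gpr183 of 0.77 (adjusted p = 0.236).
The 7 genes called in these lists passed without R1, and Grk6, Arhgef1, Lpar6 and Gpr65 also without V4, while none of the 7 passed without any other mouse. Their highest adjusted p when 1 mouse was left out lay between 0.0762 (Lpar6) and 0.163 (Asah1).

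**Figure D3:**
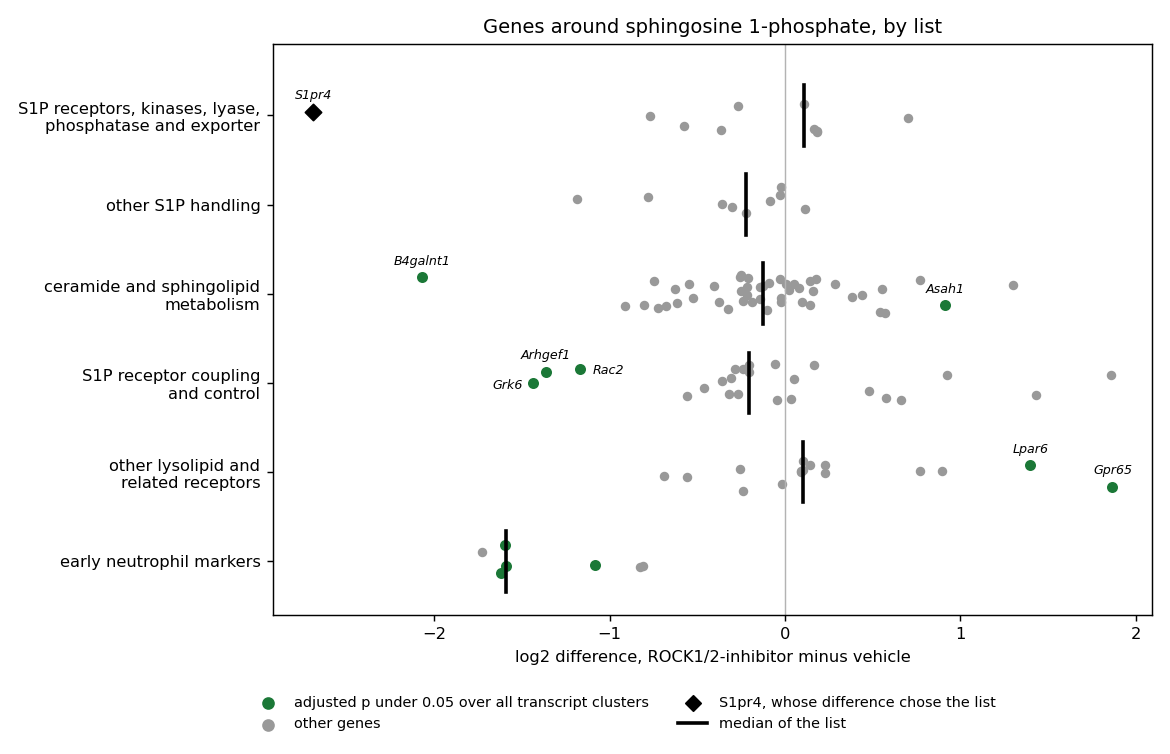
Log2 difference, inhibitor minus vehicle (x axis), of every measured gene in 5 gene lists and the early neutrophil markers (y axis, points spread within a row so that they can be seen). Green points passed the adjusted threshold over all transcript clusters, the black diamond is S1pr4, whose difference chose the list, grey points are other genes, and black lines are list medians, S1pr4 left out, which lie between −0.22 and 0.11 in the gene lists and at −1.59 in the neutrophil markers.

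Over the 7 mice, the genes whose log2 values, each centred on its own mean, lay closest to those of S1pr4 were Coro1a, an actin-binding protein gene of leukocytes (root mean square difference 0.25 log2 units), the phosphatase gene Ppm1m (0.26), Lgals3, which encodes galectin-3 (0.31), the histone gene H3c11 (0.38), whose near-identical copies may share probes, and Atp5d, a subunit of the mitochondrial ATP synthase (0.38). They were picked for this likeness, which includes the difference between the groups, so no test is given. Coro1a was 7.41 in R1, 6.17 in R2, 5.97 in R3 and 4.69 in R4, against 8.76 in V2, 8.53 in V3 and 8.24 in V4. As with S1pr4, R1 was the highest and R4 the lowest inhibitor mouse in all 5 genes, and V4 was the lowest vehicle mouse in all 5.

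**Figure D4:**
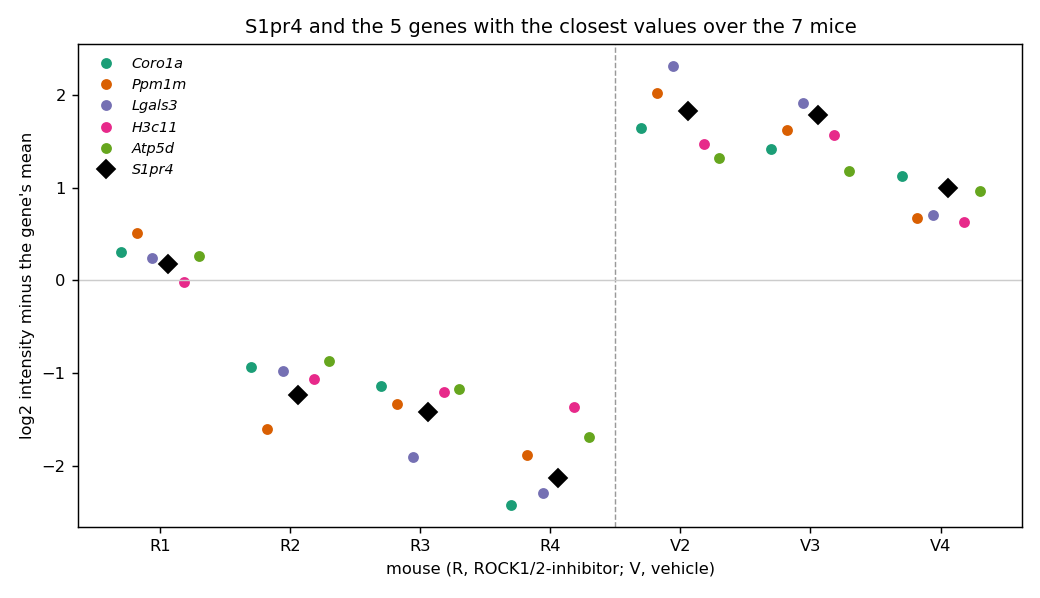
Log2 intensity minus the gene's own mean over the 7 mice (y axis) for S1pr4 (black diamonds) and the 5 genes closest to it (coloured points), by mouse (x axis; R, inhibitor; V, vehicle). In each of the 6 genes R1 lies highest and R4 lowest among inhibitor mice, and all vehicle mice lie above all inhibitor mice.

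Markers of early neutrophils were also lower in inhibitor mice than in vehicle mice. Of 7 measured markers, 4 fell (Mpo, Cebpe, Prtn3 and Fcnb), where 1.17% of all transcript clusters did, and 3 did not pass, and all 7 had a difference below 0 (median log2 difference −1.59, range −1.73 to −0.81). Their mean log2 intensity was 5.26 to 6.47 in inhibitor mice and 6.90 to 7.37 in vehicle mice, and each marker lay above the upper quartile of its array in every mouse. Relative to the vehicle mean, this list stood at −0.65 in R1, −1.85 in R2, −1.01 in R3 and −1.77 in R4, and S1pr4 at −1.36 in R1, −2.77 in R2, −2.96 in R3 and −3.67 in R4. R1 was the inhibitor mouse nearest to vehicle in both, while the lowest was R4 for S1pr4 and R2 for the markers. Among vehicle mice, V2 was the highest for S1pr4 (0.29) and the lowest for the markers (−0.22). S1pr4 and the markers share the difference between the groups, for which S1pr4 was selected, and the place of R1 nearest to vehicle. The part of early neutrophils in the S1pr4 result was not tested.
Over the 12 other marker lists, 1 of 81 measured genes passed, where 2.23% of all transcript clusters did. This gene was Ms4a4c of inflammatory monocytes, which rose by 1.35 (adjusted p = 0.0374 from limma). The medians of these lists lay between −0.28 and 0.28. For the cells known to carry S1pr5, the NK cell markers averaged 1.75 to 2.16 in inhibitor mice and 1.67 to 1.83 in vehicle mice, and the patrolling monocyte markers 2.90 to 3.03 in inhibitor mice and 3.00 to 3.34 in vehicle mice. Endothelial markers averaged 1.79 to 2.14 in inhibitor mice and 1.72 to 1.78 in vehicle mice. Markers of mature neutrophils averaged 9.96 to 10.3 in inhibitor mice and 9.87 to 10.4 in vehicle mice.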

How the data were processed

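Splenic CD11b+ CD45+ cells were profiled on Clariom S Mouse arrays, each mouse giving 1 array. What the authors deposited are log2 intensities from the RMA method of the oligo package (background correction, quantile normalization, summary per gene through a Clariom S annotation package). Versions and the genome build of the array annotation are not given in the sources used here, and no detection calls were used. The methods and the labels name different RNA kits. Of 22203 rows, 22139 are transcript clusters and were tested over all genes; a platform annotation gives 19527 of these 1 symbol. The brightest row stood for a gene, and each of the 10 genes here had 1 row.

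A linear model without covariates (limma 3.58.1, lmFit and eBayes, R 4.3.3) gave two-sided tests of inhibitor against vehicle. Benjamini-Hochberg adjustment covered every transcript cluster, and 0.05 was the threshold. Each array came from its own mouse, and 7 arrays limit the precision. S1pr4 and the 5 genes closest to it are described without a test and left out of counts of calls among named genes. Members, gene lists and marker lists were chosen with earlier results of these data known. Named genes are the 10 members, the called genes and up to 3 further genes by p of each list, the 5 genes closest to S1pr4, and the gate markers; Ms4a4c and the early neutrophil genes were named after their values were seen. List genes for which no row is named, such as Rock2, were not analysed here. Alternatives were other variance models, array weights, normalizations, row filters, a replicate block and leaving out each mouse. Summaries and plots used pandas 2.3.3 and matplotlib 3.10.9 under Python 3.11.15.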

Additional observations from a re-analysis of the deposited data

Results flagged for a closer look

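In 2 of 36 genes looked at, 1 array lay far from the others of the inhibitor group, by the gap to its nearest neighbour over the range of the group, beyond the 95% limit for groups of 4. S1pr1 was higher in R4, at 2.46, than in the other inhibitor mice at 1.79 to 1.90 (gap over range 0.831), and its log2 difference was 0.028 without R4. Itgam was lower in R1, at 8.56, than in the others at 9.06 to 9.15 (gap over range 0.854). Chance gives such a gap in about 1 group in 20, and groups of 3 vehicle mice were too small to be looked at in this way.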

How the results depend on the processing

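The members other than S1pr4 kept their direction except Sgpl1, which ranged between −0.043 and 0.41 on the log2 scale when 1 mouse was left out. S1pr4 was lower with the inhibitor in every alternative. It was selected for its large fall on these same arrays, so this is no independent support. Over the 30 named genes other than S1pr4 and the 5 closest to it, and the alternatives other than leaving out a mouse, 248 values kept direction and side of the threshold, 18 gained the call, 3 lost it (Asah1) and 0 turned. The 18 gains were in Acer3, Rgs1, Rock1, Ugcg, Sphk2 and Cib1. When 1 mouse was left out, 164 kept both, 38 lost the call, 6 gained it and 2 turned (Sgpl1).
The count of all transcript clusters called, 494 with all mice, was 1035 without R1, 534 without V4 and 34 without V3. It was 4 without R3, and 2 without R2, without R4 and without V2. Leaving out 1 mouse gave between 0 and 1 calls for the 9 members other than S1pr4 and for other S1P handling genes. There were between 0 and 5 for ceramide and sphingolipid genes and for coupling and control genes, and between 0 and 2 for other lysolipid receptors. The coupling and control genes gave 5 calls with a trended and robust variance model, with array weights, with cyclic loess and without the dimmest 25% of rows. With the replicate number as a replicate block the counts were 964 transcript clusters, 1 member (Sphk2) and 1 other S1P handling gene. Whether the numbers pair the mice is not known. Deviations of same-numbered arrays correlated at 0.096, −0.13 and −0.032, which are too few values to decide. R1 has no partner, so the block gives the differences found without R1. S1pr3 could not be tested without the dimmest rows, and no member had a second row to try. The cause of these shifts was not tested. The number of arrays limits each value, and members near the array medians could hide a decrease.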
